A study of Mus musculus with 6 samples.

Results

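*Foxj1* and the motile cilia genes were followed in primary mouse neurons transduced with a CRISPR activator. The set was defined by name: *Foxj1*, *Ccdc39*, *Ccdc40* and every gene whose symbol begins with Dnah, Dnai, Rsph, Cfap or Drc and a number. Of the 50508 symbols in the files, 56 matched, among them the antisense RNA Dnah2os, and 45 were above 0 in at least 1 library. The other 11 were listed at 0 in all 6 libraries. The set was taken up because *Foxj1* was lower in the neurons that received the *Kcna1* guide. The difference of every gene of the set between the groups, and any p-value printed with it, is therefore given as a description.

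Both groups carried a lentiviral construct with nuclease-dead Cas9 fused to the activator VP160 under the Ef1alpha promoter, which is active in most cell types and does not restrict the construct to neurons. Ctrl-dCas9A neurons received a guide against LacZ (sgLacZ, 3 libraries) and Kcna1-dCas9A neurons received sg19, directed to the *Kcna1* promoter (sgKcna1, 3 libraries). The cells came from newborn C57Bl/6J pups and were transduced a day after plating, and the time of RNA extraction is given as 10 DIV in one place of the methods and as 14 to 16 days after transduction in another. The labels name hippocampus, whereas the methods name cortical neurons. The methods speak of independent repetitions for the experiments in general, but the sources do not say of these libraries whether those of a group came from separate cultures, so that the spread between them may be technical. Libraries were made from the 3' ends of polyadenylated RNA, and each deposited value is a rounded, per-million whole number, with totals from 999047 to 999717. One step of rounding is therefore large for a gene listed at 1 or 2, and a gene listed at 0 may still be expressed below the rounding limit. *Kcna1* was listed at 16, 16 and 16 in the controls, against 68, 47 and 65 in Kcna1-dCas9A, as the labels of the libraries say. Between 14788 and 15417 genes were above 0 per library, and a single gene, Gm42418, took 15.3% to 20.2% of the values. The housekeeping genes *Gapdh* and *Ppia* were listed at only 3 to 17 and 6 to 14, so that a low value in these files need not mean low expression. *Gapdh* was listed at 17, 17 and 9 in the controls, against 7, 4 and 3 in Kcna1-dCas9A, and *Ppia* at 14, 9 and 11, against 8, 6 and 7, both lower without overlap, as *Foxj1* and *Cfap20* were.

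Motile cilia are beating organelles built on an axoneme of microtubule doublets around a central pair. In the brain they are carried by the ependymal cells that line the ventricles and by the epithelium of the choroid plexus, whereas neurons and astrocytes carry a single, mostly immotile primary cilium. *Foxj1* encodes the forkhead transcription factor that switches on the motile cilia programme, together with factors of the RFX family, which bind a sequence called the X-box. The products of the Dnah genes are the heavy chains of the dynein arms that drive the beat, those of the Rsph genes build the radial spokes, and those of the Drc genes build the nexin-dynein regulatory complex that links the doublets. The Cfap genes are a naming family of cilia- and flagella-associated proteins with diverse roles, and some of them are also transcribed in cells without motile cilia.

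Promoter windows of RefSeq (GRCm38.p6, 250 bases before to 50 after a transcript start) were found for 36 of the 45 genes, in 39 windows. *Foxj1* was not among them. An X-box, searched on both strands as GTNNCC and GGNNAC 2 bases apart, was in 4 of the 39 windows (10.3%) against 1.88% of all 32851 windows. The partial site GTTGCC, which can fall within an X-box, was in 12 (30.8%) against 12.5% of all windows, and the forkhead core GTAAACA was in 2 (5.13%) against 3.65%. Shown are the windows, among genes averaging at least 5 or separating the groups from an average of at least 1, that held any of these letters, because *Foxj1* and RFX factors are the known regulators of this programme. Of the genes shown, *Cfap20* passed the test, whereas *Rsph9* and *Drc1* did not, at adjusted p-values of 0.16 and 0.34 from limma, and the differences between the genes were not tested. They belong to *Cfap20* (chr8:95434820-95435119, minus strand), *Rsph9* (chr17:46144151-46144450, minus strand) and *Drc1* (chr5:30281143-30281442, plus strand). Capitals mark the forkhead core and then a partial site in *Cfap20*, an X-box in *Rsph9* and a partial site in *Drc1*, read 5′ to 3′ in the direction of transcription.
Cfap20: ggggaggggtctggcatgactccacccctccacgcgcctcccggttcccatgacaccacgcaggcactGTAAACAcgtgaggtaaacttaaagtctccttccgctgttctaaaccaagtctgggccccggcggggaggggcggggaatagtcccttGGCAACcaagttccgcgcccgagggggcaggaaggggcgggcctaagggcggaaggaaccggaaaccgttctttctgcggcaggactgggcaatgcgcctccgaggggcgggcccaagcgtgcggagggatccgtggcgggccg
Rsph9: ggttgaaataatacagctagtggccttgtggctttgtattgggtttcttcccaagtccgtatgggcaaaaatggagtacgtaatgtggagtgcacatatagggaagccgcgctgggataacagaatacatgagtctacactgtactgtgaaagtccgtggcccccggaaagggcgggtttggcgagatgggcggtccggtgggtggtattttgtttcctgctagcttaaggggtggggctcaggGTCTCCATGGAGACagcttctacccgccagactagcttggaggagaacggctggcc
Drc1: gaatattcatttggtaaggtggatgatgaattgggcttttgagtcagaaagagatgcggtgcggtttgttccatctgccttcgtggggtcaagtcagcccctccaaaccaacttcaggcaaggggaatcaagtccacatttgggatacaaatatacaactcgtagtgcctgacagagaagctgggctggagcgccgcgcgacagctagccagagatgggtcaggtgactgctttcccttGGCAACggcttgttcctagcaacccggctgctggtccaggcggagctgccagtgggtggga
These matches are a description of the letters in the windows. Counted from the transcript start, the X-box of *Rsph9* began at base -6, the partial site of *Drc1* at -11 and that of *Cfap20* at -94.

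*Foxj1* was listed at 7, 5 and 4 in the Ctrl-dCas9A libraries. In the Kcna1-dCas9A libraries it was listed at 0, 0 and 1. Every control library thus stood above every Kcna1-dCas9A library, and the groups did not overlap. The difference on the log2(value + 1) scale was -2.30 (standard error 0.37), the lowest of the 45 genes. It is given without a test, because *Foxj1* was chosen for it. On this scale the change of a gene at such low values is understated, and it was -2.98 with a pseudocount of 0.5. In bulk RNA, fewer cells that express the gene and less *Foxj1* RNA per cell cannot be told apart.

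*Ccdc39* and *Ccdc40* encode the paired proteins that act as the ruler of the axonemal repeat and are needed to place inner dynein arms and the regulatory complex. *Ccdc39* was listed at 8, 9 and 13 in the controls, against 13, 9 and 10 in Kcna1-dCas9A. *Ccdc40* was listed at 2, 3 and 6 and at 4, 4 and 2. For both genes the groups overlapped, and the differences on the log2(value + 1) scale, 0.10 (standard error 0.24) for *Ccdc39* and -0.05 (standard error 0.39) for *Ccdc40*, were smaller than their standard errors. *Ccdc39* overlaps *Ttc14* and *Ccdc40* overlaps *Tbc1d16* in RefSeq, and whether reads were counted by strand is not given.

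Each dynein heavy chain gene had low values. Of the 16 symbols matched, 12 were above 0, and the highest mean over the 6 libraries was 3.83. This was *Dnah9*, an outer arm heavy chain, listed at 3, 4 and 4 in the controls, against 5, 4 and 3 in Kcna1-dCas9A. *Dnah5*, an outer arm heavy chain of the same dynein, was listed at 2, 2 and 2 and at 1, 2 and 3. The inner arm heavy chain *Dnah7b* was listed at 4, 1 and 6 and at 2, 2 and 2, with the near-identical *Dnah7a* at 0 to 2 and Dnah7c at 0 throughout, so that the split of reads between these copies is uncertain. The values of all Dnah genes summed to 12, 12 and 19 in Ctrl-dCas9A and to 13, 12 and 13 in Kcna1-dCas9A. The sums were level between the groups apart from the higher sum of Ctrl-dCas9A replicate 3.

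The radial spoke genes were led by *Rsph9* and *Rsph1*, which encode proteins of the spoke head. *Rsph9* was listed at 22, 22 and 23 in the controls, against 25, 34 and 31 in Kcna1-dCas9A, a difference of 0.40 (standard error 0.15) on the log2(value + 1) scale. All 3 Kcna1-dCas9A libraries stood above all controls, the opposite order to *Foxj1*. *Rsph1* was listed at 12, 7 and 8 and at 11, 7 and 12, a difference of 0.14 (standard error 0.28), and its groups overlapped. *Rsph9* overlaps *Mrps18a* and *Rsph1* overlaps *Ubash3a* in RefSeq. *Rsph4a*, another spoke head gene, was listed at 2, 4 and 2 and at 2, 3 and 0. The 5 Rsph genes above 0 summed to 40, 37 and 36 in Ctrl-dCas9A and to 41, 49 and 47 in Kcna1-dCas9A, and these sums did not overlap, nor did they after rescaling by median-of-ratios factors. *Rsph9* alone separated them, since the other 4 genes summed to 18, 15 and 13 and to 16, 15 and 16, which overlapped.

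*Drc1*, a core subunit of the nexin-dynein regulatory complex, was listed at 9, 8 and 16 in the controls, against 19, 13 and 14 in Kcna1-dCas9A. The difference was 0.49 (standard error 0.28) on the log2(value + 1) scale, and Ctrl-dCas9A replicate 3 lay within the range of the other group. *Drc3* was listed at 3, 1 and 2 and at 0, 1 and 2, and *Drc7* did not exceed 1 in any library. The 3 Drc genes summed to 12, 10 and 18 and to 20, 14 and 16, which overlapped.

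**Figure D1:**
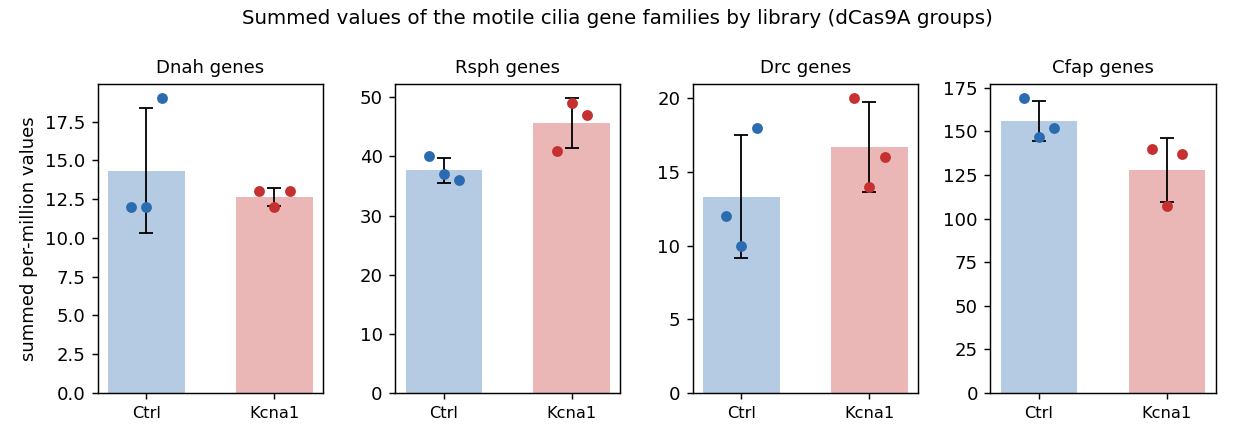
Summed per-million values of the Dnah, Rsph, Drc and Cfap genes in each library, with bars at the mean of 3 libraries and error bars of 1 SD. The Dnah and Drc sums overlapped between Ctrl-dCas9A and Kcna1-dCas9A, the Rsph sums were higher and the Cfap sums lower in all 3 Kcna1-dCas9A libraries, an order set by *Rsph9* and by *Cfap36* and *Cfap20*.

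The Cfap family held the largest values. *Cfap36*, whose product binds the small GTPase ARL3, alone made up 33.5% of the summed values of the 45 genes, and *Cfap20*, *Cfap36* and *Cfap97* together made up 49.2%. *Cfap36* was listed at 103, 92 and 77 in the controls, against 68, 57 and 63 in Kcna1-dCas9A. Its difference was -0.52 (standard error 0.14) on the log2(value + 1) scale, without overlap between the groups. *Cfap36* overlaps *Ppp4r3b* in RefSeq. *Cfap20* encodes a protein of the inner junction, which joins the tubules of a doublet. It was listed at 18, 15 and 13 in the controls, against 4, 4 and 5 in Kcna1-dCas9A. Its means were 15.3 ± 2.5 (SD, n = 3) and 4.33 ± 0.58 (SD, n = 3), the groups lay far apart, and the difference of -1.61 (standard error 0.20) was the second lowest of the set after that of *Foxj1*. *Cfap97* was listed at 20, 18 and 27 and at 32, 21 and 39, a difference of 0.46 (standard error 0.26), with Kcna1-dCas9A replicate 2 below Ctrl-dCas9A replicate 3.

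The remaining Cfap genes had a mean of at most 4.17 over the 6 libraries. The highest of them, *Cfap43*, was listed at 6, 5 and 4 in the controls, against 4, 3 and 3 in Kcna1-dCas9A, so that the groups touched at 4. *Cfap45*, whose product lies inside the doublet tubules, was listed at 1, 1 and 5 in the controls, against 5, 2 and 4 in Kcna1-dCas9A. *Cfap53*, of similar location, was listed at 2, 1 and 2 in both groups. *Cfap54*, a central pair gene, was listed at 2, 2 and 3 and at 1, 2 and 2. None of *Cfap43*, *Cfap45*, *Cfap53* and *Cfap54* separated the groups. All Cfap genes summed to 169, 147 and 152 in Ctrl-dCas9A and to 140, 107 and 137 in Kcna1-dCas9A, and these sums did not overlap, also after that rescaling. The order was set by *Cfap36* and *Cfap20*. The other Cfap genes summed to 48, 40 and 62 and to 68, 46 and 69, which overlapped, with the opposite order of the means.

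**Figure D2:**
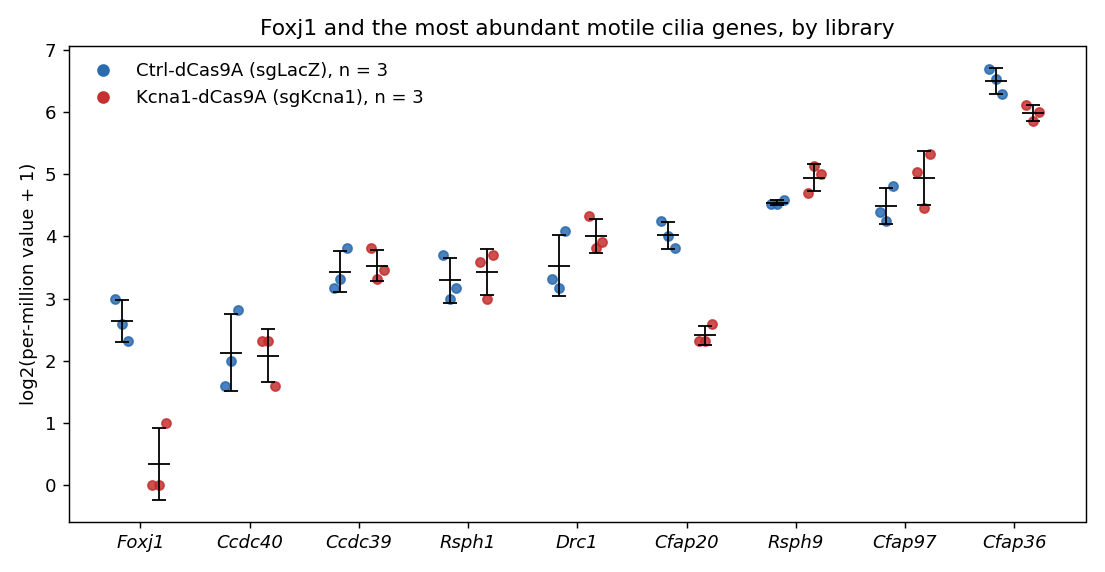
Values of *Foxj1*, *Ccdc40* and the 7 motile cilia genes with a mean of at least 5 in each library, on a log2(per-million value + 1) axis, with the mean and SD of each group of 3. *Foxj1*, *Cfap20* and *Cfap36* were lower in all Kcna1-dCas9A libraries and *Rsph9* was higher, while the groups overlapped for the other 5 genes.

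Most genes of the set were near the limit of the values. The mean over the 6 libraries was under 1 for 15 of the 45 genes, between 1 and 5 for 23 and at least 5 for 7, and 22 genes were above 0 in every library. At the edge of the set, 4 genes, *Cfap65*, *Dnah1*, *Dnah3* and *Dnah14*, were listed at 1 in 1 library and at 0 in the others, against 0 throughout for the 11 genes just outside. Without *Foxj1*, the values of the set summed to 243, 218 and 244 in Ctrl-dCas9A and to 231, 195 and 225 in Kcna1-dCas9A. The highest Kcna1-dCas9A sum lay above the lowest control sum, so that the groups overlapped. Between 30 and 37 of the 45 genes were above 0 in a library.

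Across the whole table, 226 of the 19504 genes above 0 passed an adjusted p of 0.05 from limma (Benjamini-Hochberg adjustment), or 1.16%, with 0.81% lower and 0.349% higher in Kcna1-dCas9A. After rescaling by median-of-ratios factors 1719 passed, 962 higher and 757 lower. Of the 44 motile cilia genes other than *Foxj1*, 1 passed, *Cfap20*, at an adjusted p of 0.049 (limma), and 0 were higher, while 3 of the 44 had an unadjusted p under 0.05, against 23.2% of all genes tested. Since this contrast was used to choose the set, nothing is read from that share. The median difference over all 45 genes was 0.00 on the log2(value + 1) scale, against -0.02 over all genes tested. Positive differences were found in 20 genes, negative ones in 16 and no difference in 9, and the middle of the set ran from -0.30 to 0.33, against -0.33 to 0.33 for all genes tested. Of the 29 genes other than *Foxj1* with a mean of at least 1, 2 (*Cfap20* and *Cfap36*) were lower and 1 (*Rsph9*) was higher without overlap between the groups. Among all genes with such a mean, 18.6% were lower and 12.1% were higher without overlap. The single call rested on the libraries included. Leaving out Ctrl-dCas9A replicate 1 or 2, or any 1 of the Kcna1-dCas9A replicates 1, 2 and 3, gave 0 calls from limma in the whole table, with 2 to 4 motile cilia genes at an unadjusted p under 0.05. Leaving out Ctrl-dCas9A replicate 3 gave 2711 calls in the whole table and 3 among the motile cilia genes, *Cfap20* and *Cfap36* lower and *Cfap46* higher. *Cfap46* was then listed at 0 and 0 in the controls, against 1, 1 and 1 in Kcna1-dCas9A, a single step of rounding.

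**Figure D3:**
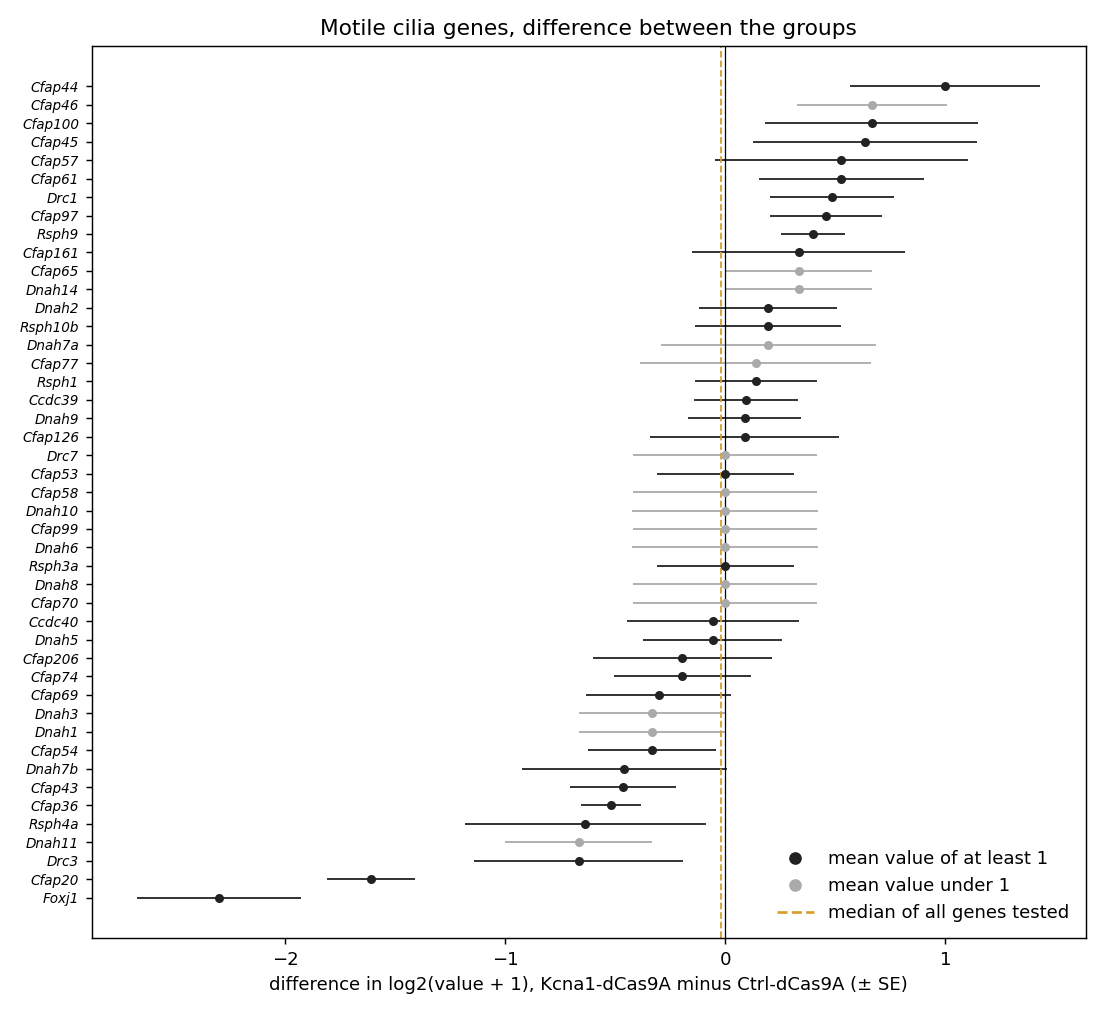
Difference in log2(value + 1) between Kcna1-dCas9A and Ctrl-dCas9A for each of the 45 motile cilia genes, with its standard error from limma, in grey for genes with a mean under 1. *Foxj1* at -2.30 and *Cfap20* at -1.61 stand apart from the other 43 genes, which lie between -0.67 (*Drc3* and *Dnah11*) and the value of *Cfap44*, the highest, around the median of all genes tested at -0.02.

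Regulators linked to multiciliated cells were next compared, as a list of 23 genes of which 19 were above 0. The list also holds the Notch pathway genes *Notch1* and *Hes5*, so that its median is not that of activators alone. The geminin relatives *Mcidas* and *Gmnc* start the multiciliated programme, and they are named here after their values were seen. *Mcidas* was listed at 0 in all 6 libraries and *Gmnc* at 1 in Ctrl-dCas9A replicate 1 and at 0 elsewhere. Among the most abundant genes of the list, *Nfix*, a transcription factor of neural precursors, was listed at 2015, 2054 and 1849 in the controls, against 2191, 1854 and 2373 in Kcna1-dCas9A, and *Rfx3*, an X-box factor of cilia genes, at 42, 44 and 32 and at 30, 25 and 36. The groups of both overlapped (adjusted p from limma, 0.53 and 0.27).

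In this list 1 of 19 genes passed an adjusted p of 0.05 from limma, against 1.16% of all genes tested, and 5 had an unadjusted p under 0.05, against 23.2%. *Hes5*, a Notch target that holds precursors undifferentiated, was listed at 197, 211 and 199 in the controls, against 112, 114 and 115 in Kcna1-dCas9A. The difference was -0.83 on the log2(value + 1) scale (standard error 0.08, adjusted p = 0.042 from limma), and like all other calls this one was lost when any 1 library other than Ctrl-dCas9A replicate 3 was left out. Over the 19 genes the median difference was -0.33, with 5 positive and 14 negative. Of the 16 genes with a mean of at least 1, 5 were lower and 0 higher without overlap between the groups, against 18.6% and 12.1% of all such genes.

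Of 68 further axonemal and dynein assembly gene symbols outside the naming rule that the tables held, 55 were above 0 and 0 passed an adjusted p of 0.05 from limma, with 7 at an unadjusted p under 0.05, against 23.2% of all genes tested. The median difference of these 55 genes was 0.00. Of the 35 with a mean of at least 1, 5 were lower and 2 higher without overlap between the groups, against 18.6% and 12.1% of all such genes. Of the 3 most abundant, the tubulins were not specific to motile cilia. *Tuba1a*, the main neuronal alpha tubulin, was listed at 11263, 10840 and 11492 in the controls, against 8392, 8728 and 6257 in Kcna1-dCas9A, and the beta tubulin *Tubb4b* at 114, 130 and 228 and at 264, 281 and 266. *Spef1*, which encodes a microtubule-bundling protein of the central pair, was listed at 32, 27 and 52 and at 89, 88 and 102. All 3 separated the groups, *Tuba1a* with lower and the other 2 with higher values in Kcna1-dCas9A, at an adjusted p of 0.086, 0.094 and 0.051 from limma. Without the tubulins the list summed to 310, 314 and 320 in Ctrl-dCas9A and to 353, 336 and 335 in Kcna1-dCas9A. Without *Spef1* as well it summed to 278, 287 and 268 and to 264, 248 and 233. The order of the groups thus turned with *Spef1*, higher in all Kcna1-dCas9A libraries with it and lower in all without it. The genes left include *Dnal4*, listed at 73, 78 and 43 and at 33, 37 and 30.

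Intraflagellar transport, the cargo system that builds motile and primary cilia alike, was represented by 33 genes, of which 32 were above 0. Of these 0 passed an adjusted p of 0.05 from limma and 16 had an unadjusted p under 0.05, against 23.2% of all genes tested, and the median difference was 0.00 with 16 positive and 15 negative. Of the 31 genes with a mean of at least 1, 6 were lower and 7 higher without overlap between the groups, against 18.6% and 12.1% of all such genes. The kinesin-2 motor genes were the most abundant. *Kif3b* was listed at 274, 263 and 429 in the controls, against 541, 479 and 583 in Kcna1-dCas9A, *Kif3a* at 199, 213 and 335 and at 390, 341 and 376, and their partner *Kifap3* at 199, 217 and 202 and at 203, 205 and 213. The 2 motor subunits separated the groups without passing the threshold (adjusted p = 0.073 for *Kif3b* and 0.12 for *Kif3a* from limma), with Ctrl-dCas9A replicate 3 nearest to the other group, whereas *Kifap3* was level.

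Of 51 genes of the primary cilium and its transition zone, 51 were above 0 in at least 1 library. Of these 0 passed an adjusted p of 0.05 from limma and 16 had an unadjusted p under 0.05, against 23.2% of all genes tested, and the median difference was -0.20 with 16 positive and 33 negative. *Arl3*, the GTPase that releases cargo in cilia, was listed at 172, 166 and 142 in the controls, against 142, 134 and 117 in Kcna1-dCas9A. The kinase gene *Ttbk2*, which acts at the start of ciliogenesis, was listed at 47, 58 and 59 and at 59, 46 and 53, and the transition zone gene *Cep290* at 37, 38 and 50 and at 51, 41 and 56. *Ttbk2* and *Cep290* overlapped between the groups, and *Arl3* touched at 142. Of the 46 genes of this list with a mean of at least 1, 8 were lower and 1 was higher without overlap, against 18.6% and 12.1% of all such genes.

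**Figure D4:**
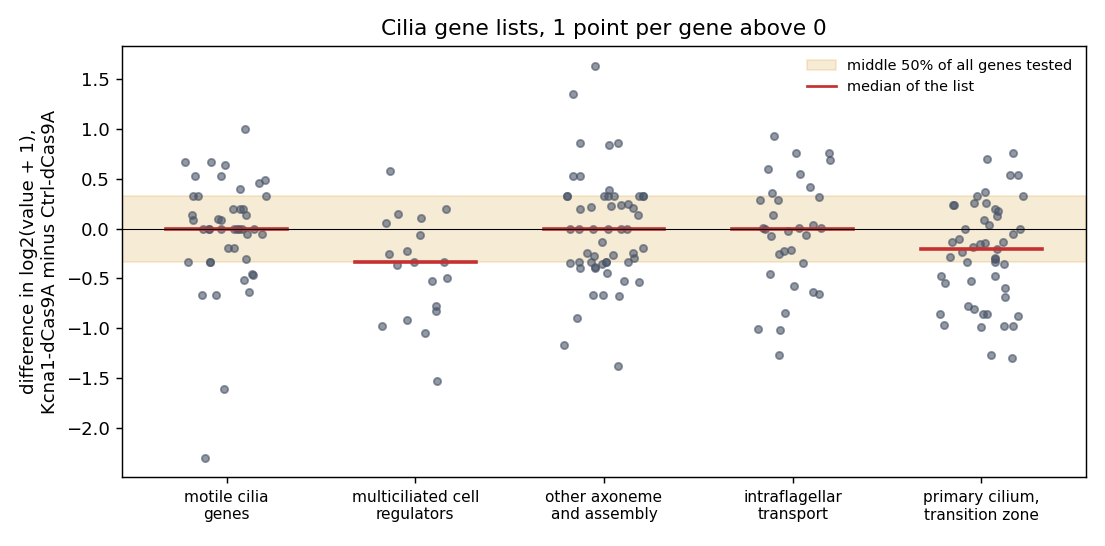
Difference in log2(value + 1) between Kcna1-dCas9A and Ctrl-dCas9A for each gene above 0 in 5 lists of cilia genes, with the median of each list as a line and the middle 50% of all genes tested shaded. The medians are 0.00, -0.33, 0.00, 0.00 and -0.20 from left to right.

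Markers of the cells that could carry motile cilia were compared next. Of 10 ependymal markers outside the set, 7 were above 0, and *Ccdc153*, *Tmem212* and *Rarres2*, which mark mature ependymal cells, were listed at 0 in all 6 libraries. These markers summed to 13 to 16 in Ctrl-dCas9A and to 9 to 15 in Kcna1-dCas9A, which overlapped. Of 8 choroid plexus markers 6 were above 0, with sums of 37 to 46 and 33 to 37. Most of this was *Ttr*, listed at 35, 27 and 23 in the controls, against 23, 29 and 27 in Kcna1-dCas9A, which overlapped. The other 7 summed to 11, 13 and 14 and to 10, 8 and 9, lower in all Kcna1-dCas9A libraries, and among them *Otx2* was listed at 8, 8 and 7 in the controls, against 4, 5 and 4 (adjusted p = 0.092 from limma), while *Kl* and *Kcne2* were at 0 throughout. Of the 8 neuronal markers 3 had a positive and 5 a negative difference (median -0.02), and their sums of 4186 to 4925 and 5311 to 6719 were set by *Tubb3*, listed at 1862, 1752 and 2605 in the controls, against 3855, 3221 and 4591 in Kcna1-dCas9A. The other 7 summed to 2320 to 2519 and to 2090 to 2153, in the opposite order. Other cell type markers differed along with *Foxj1*. All 10 astrocyte markers were above 0 and summed to 961 to 1069 in Ctrl-dCas9A and to 702 to 718 in Kcna1-dCas9A, with *Aqp4*, *Sox9* and *Aldoc* lower at an adjusted p under 0.05 from limma (3 of 10 called, against 1.16% of all genes tested). The groups overlapped for *Gfap*, listed at 63, 45 and 57 in the controls, against 46, 48 and 70. They also overlapped for *Aldh1l1*, *Fgfr3* and *S100b*, and the difference of *S100b* was positive. The 9 progenitor markers summed to 1092 to 1559 and to 685 to 797, with *Fabp7* and *Hes5* lower (2 of 9 called). Without *Fabp7*, listed at 635, 471 and 301 in the controls, against 118, 82 and 117, they summed to 791 to 924 and to 603 to 679. *Vim*, *Sox2*, *Pax6* and *Prom1* overlapped between the groups. Of the 8 cycling cell markers, 0 passed an adjusted p of 0.05 and 7 had an unadjusted p under 0.05 from limma, against 23.2% of all genes tested. They summed to 121 to 126 in Ctrl-dCas9A and to 71 to 75 in Kcna1-dCas9A. The 8 microglia markers, of which 7 were above 0, summed to 21 to 26 and to 56 to 77. Among them *C1qa* was higher (1 of 7 called, against 1.16% of all genes tested). The groups overlapped for *Csf1r* and *Tyrobp*, and *P2ry12* was at 0 throughout. The part of these cells in the values of *Foxj1* and *Cfap20* was not tested.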

How the data were processed

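RNA of 6 libraries of primary mouse neurons (3 Ctrl-dCas9A, 3 Kcna1-dCas9A, grouped by the sample labels) was analysed. The authors deposited a score per gene, a whole number. It was read as a rounded per-million value, because the libraries sum to between 999047 and 999717 and the replicate variance of genes with a mean of 4 to 8 was 0.698 (Ctrl-dCas9A) and 0.499 (Kcna1-dCas9A) times the mean. The number of reads is unknown, and no intervals or floors are given. For the authors' own processing, the methods name Bowtie2, NCBI37/mm9 and DESeq2, whereas the submitters' processing notes name STAR 2.7, featureCounts, DESeq2 and mm10. The annotation, strand setting and scaling are not given in the sources used here.

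Values were fitted with limma 3.58.1 in R 4.3.3 (lmFit, eBayes with an intensity trend) on log2(value + 1), over the 19504 genes above 0 in at least 1 library, with the group as the only factor, Benjamini-Hochberg adjustment over all genes and a threshold of 0.05. A test on counts, as in the methods, was not possible on such values. The fit was tested on simulated data. Named were *Foxj1*, *Ccdc39*, *Ccdc40*, members with a mean of at least 5, an adjusted p under 0.05 or, from a mean of 1, groups without overlap, and in each other cilia list the called genes and the 3 most abundant; other family members are given as examples of their roles and were chosen after their values were seen. Sums without single genes were added after the sums were seen. The members and lists were chosen with earlier results of these data known. Replicate numbers come from the labels, which do not say that they pair the cultures. Sequences are from RefSeq (GRCm38.p6), read with Python 3.11.15. Alternatives were median-of-ratios factors, a pseudocount of 0.5, a mean value of at least 1, no trend, the replicate block and each library left out.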

Additional observations from a re-analysis of the deposited data

How the results depend on the processing

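The difference of *Foxj1* ran from -2.12 to -2.64 with 1 library left out and was -2.98 with a pseudocount of 0.5. That of *Cfap20* ran from -1.49 to -1.71. Because the groups of both genes did not overlap, leaving out 1 library could not turn their direction. The median of the motile cilia genes stayed between -0.05 and 0.10. Counts of genes past the threshold depended on the setting, and the cause was not tested. In all, 19504 genes were tested as reported and with median-of-ratios factors, and 13604 when a mean of 1 was required. For the motile cilia genes without *Foxj1* these numbers were 44 and 29. They were 19 and 16 for the regulators and 55 and 35 for the other axonemal genes. Intraflagellar transport had 32 and 31, and the primary cilium 51 and 46. Each count is to be read against the share of all genes called at that setting, and no such comparison was tested. Of all genes tested, 226 passed as reported, 1719 with median-of-ratios factors, 10 with a pseudocount of 0.5, 1543 with a mean value of at least 1, 201 without the trend, and 0 to 2711 with 1 library left out, the highest without Ctrl-dCas9A replicate 3 and 0 without any other single library. Of the motile cilia genes other than *Foxj1*, 1 passed as reported, 0 with a pseudocount of 0.5, 2 with a mean value of at least 1, and 0 to 3 with 1 library left out. With median-of-ratios factors and with a mean value of at least 1, respectively, the calls were 3 and 3 among the regulators (1 as reported, 0 without the trend, 0 to 4 with 1 library left out), 4 and 3 among the other axonemal genes (0 as reported, 0 to 3), 5 and 2 among intraflagellar transport genes (0 as reported, 0 to 6) and 2 and 3 among primary cilium genes (0 as reported, 0 to 3).

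With the replicate block, 0 genes passed, among them 0 motile cilia genes and 0 regulators. The adjusted p of *Cfap20* was then 0.11 from limma. The block cannot change a difference in this balanced design, so that those of *Foxj1* and *Cfap20* were -2.30 and -1.61 by construction. Same-numbered libraries deviated from their group means with correlations across genes of 0.013, 0.050 and 0.077, against -0.086 to 0.046 for libraries with unlike numbers. With 3 libraries per group these values cannot show whether the numbers pair the cultures. The unknown depth and the rounding to whole numbers limit what can be said of genes listed below about 5.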
